A study of Mus musculus with 9 samples.

Results

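The clustered protocadherins are a family of cell surface genes that lie side by side in the alpha, beta and gamma arrays of mouse chromosome 18. All 57 protein-coding genes whose symbol begins with Pcdha, Pcdhb, Pcdhga, Pcdhgb or Pcdhgc were followed, out of 54532 genes in the count table. They comprised 14 alpha genes (GRCm38, chr18:36930184-37187661), 22 beta genes (chr18:37264938-37524479) and 21 gamma genes (chr18:37661793-37841873), all on the plus strand. No measured value entered the rule, which rests on symbol and biotype, but the family itself was selected on earlier results of the counts of these same libraries. The fold changes and adjusted p-values below are therefore given as a description within the fit over all genes. RNA was sequenced from 3 groups of C57BL/6 mouse heart ventricle cells with 3 libraries each. Primary epicardium-derived cardiosphere-derived cells (pECDCs) had no treatment. They are labelled as passage 0, whereas the methods of the study name passage 3 for primary cells. Immortalized cells (iECDCs) carried human telomerase reverse transcriptase (hTERT), delivered by lentivirus under the CMV promoter with puromycin selection, and were at passage 30 without treatment. The SB431542-treated group is labelled as iECDCs at passage 30 that received SB431542 for 3 days, whereas the methods of the study describe an epithelial clone derived from pECDCs for this treatment. The starting cells of the treated group are thus uncertain, and hTERT, passage and treatment could not be told apart in every comparison with it. Between iECDCs and pECDCs, hTERT, puromycin selection and passage differ together and cannot be told apart either. The hTERT sequence is human and cannot be checked in mouse gene counts. The labels do not tie the replicates to separate animals or cultures, so p-values measure the spread between libraries, which may be technical.

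Clustered protocadherins are single-pass membrane proteins of the cadherin superfamily whose extracellular domains bind the same isoform on a neighbouring cell. They are best known from neurons, where each cell transcribes its own small set of variable genes and uses the resulting combination to tell its own branches from those of other cells. Every alpha and gamma gene contributes a variable first exon that is spliced to constant exons at the 3′ end of its array, so all alpha genes share their 3′ exons and all gamma genes share theirs. Beta genes consist of a single exon and have no such constant part. The promoters are chosen through CTCF and cohesin, which loop them to distant enhancers, and unchosen promoters carry DNA methylation. The last genes of the alpha and gamma arrays are called C-type and are regulated separately from the others. In the heart the family has been studied far less than in the brain.

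Total counts ranged from 19462912 to 23951392 in pECDCs, from 16568306 to 20204216 in iECDCs and from 17063137 to 20849975 in SB431542-treated iECDCs. iECDC replicate 3 and SB431542-treated replicate 2 stood apart from the other libraries of their groups. Against its group, the chi-square per degree of freedom over genes was 25.5 and 31.5 for the former and 72.2 and 73.5 for the latter, compared with 2.74 to 4.70 for the remaining pairs within groups. Cells of the mesenchymal type were present in all groups, since 5 of 5 cardiosphere-derived or mesenchymal markers were expressed. Of the TGF-β response genes, 5 of 9 were lower in SB431542-treated iECDCs than in iECDCs and 1 was higher, as given further on. Among all genes tested, 14.0% were lower and 16.0% higher. Of 7 neuronal markers, Rbfox3 was at 0 in all libraries, Snap25, Syt1, Elavl3 and Stmn2 had 0 to 7 counts, and Tubb3 and Map2 were the ones that passed the filter on low counts. The glial marker Sox10 was at 0 in every library. The summed FPKM of the 7 neuronal markers was 33.2 to 38.0 in pECDCs, 21.8 to 37.7 in iECDCs and 68.0 to 73.4 in SB431542-treated iECDCs, carried mainly by Tubb3. Summed FPKM of the 6 epicardial or mesothelial markers was 38.4 to 40.7, 48.2 to 57.0 and 64.1 to 68.0 in the same order, carried mainly by Tbx18 and Krt19. Of 5 tested, 3 were called higher in edgeR after SB431542 than in iECDCs, beside 16.0% of all genes. These were Wt1, Tcf21 and Upk3b, each at 1.58 FPKM or less in every library. Wt1 and Upk3b passed the filter on low counts through their treated libraries alone, so a higher call was the only likely one for them. The part of these differences in the results below was not tested. In bulk libraries, fewer cells that transcribe a gene and less RNA per cell cannot be told apart.

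The arrays differed widely in how many of their genes were detected. In the alpha array 10 of 14 genes had at most 3 counts in every library and 5 were at 0 throughout. The corresponding numbers were 4 and 1 in the beta array, where the gene without a count was Pcdhb1, and 1 and 0 in the gamma array. At least 10 counts in each of the 9 libraries were found for 1 alpha, 10 beta and 8 gamma genes. Exonic bases shared with another member made up 38.0% to 54.9% of an alpha gene and 27.8% to 66.8% of a gamma gene in the annotation. Beta genes shared none, except Pcdhb21 (9.7%) and Pcdhb22 (6.9%), which overlap each other. Most alpha genes were at 0 or 1 count although Pcdhac2 in the same array had 38 to 131, so reads in the shared 3′ exons were not credited to every member. How such reads were assigned is not given in the sources used here, and counts of alpha and gamma genes are uncertain to that extent.

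**Figure D1:**
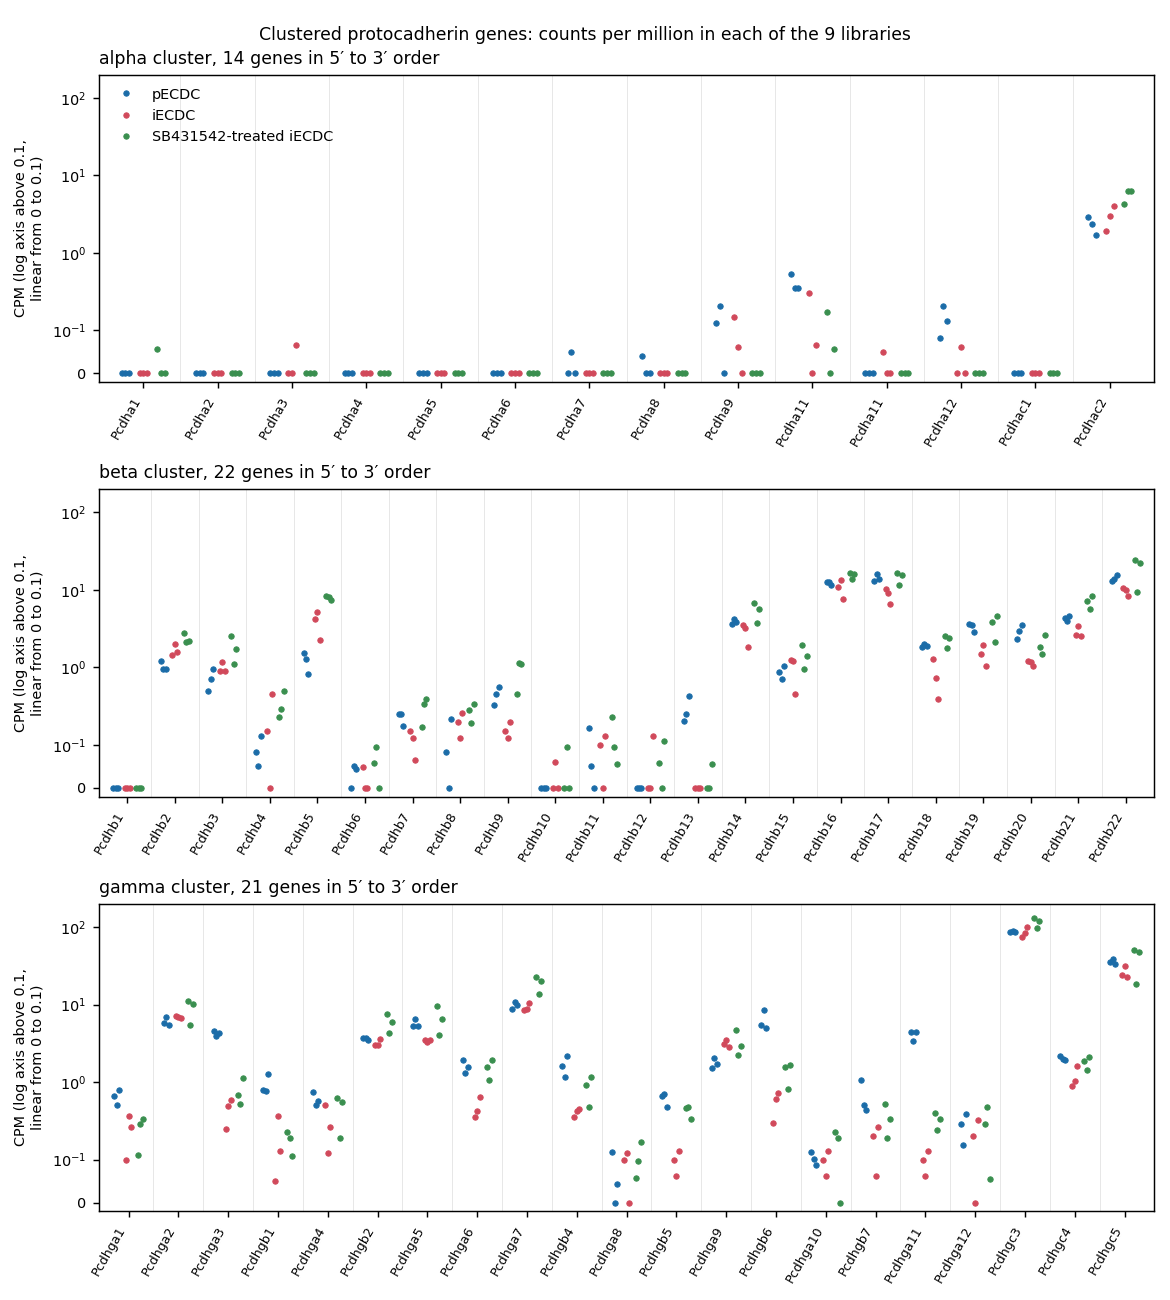
Counts per 1000000 counts of the library (CPM, log axis above 0.1 and linear from 0 to 0.1) of the 57 clustered protocadherin genes, in 5′ to 3′ order within each array, with a point for each of the 9 libraries. Pcdhgc3 lies highest in all groups at 86.5 to 116 CPM on average, most alpha genes lie at or near 0, and Pcdhga3, Pcdhgb6 and Pcdhga11 are well below pECDCs in all iECDC libraries.

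Between iECDCs and pECDCs, clustered protocadherins fell far more often than they rose, and the largest decreases belonged to the gamma A and gamma B genes. Of 29 members that passed the filter on low counts, 14 were lower in iECDCs and 2 were higher at an adjusted p-value under 0.05 in edgeR's quasi-likelihood test, beside 9.21% lower and 7.21% higher among all 13752 genes tested. The remaining 13 tested members were not called and 28 had too few counts to be tested. Pcdhga11, Pcdhgb1 and Pcdhgb4 were among the members that passed the filter through their pECDC counts alone. For such members a lower call was the only likely one. Pcdhga3, Pcdhga6, Pcdhgb6 and Pcdhb18 also needed their pECDC counts to pass, because not all of their iECDC libraries reached the filter's level. A lower call was the likelier one for them. The calls were not counted without either set. The median log2 fold change of the 29 members was -0.61, beside -0.0018 over all genes. The libraries of the groups did not overlap for 18 tested members that were lower and 3 that were higher, where 20.0% and 19.6% of all tested genes did so. A log2 fold change of at least 1 in either direction was found for 10 of the 16, beside 3.72% of all genes. Without iECDC replicate 3, 20 members were called (18 lower, 2 higher). Without pECDC replicate 1, 2 or 3 the number was 11, 9 or 9.

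Pcdhga11 showed the largest fold decrease of the family. Its counts were 106, 67 and 103 in the pECDC libraries, 2, 1 and 2 in the iECDC libraries and 7, 5 and 6 in the SB431542-treated libraries. The groups did not overlap, and a gene that was well detected in primary cells was close to absent in immortalized cells. The ratio of pECDCs to iECDCs was 42.6, with an exact interval of 18.05 to 132.3 from counting error only (edgeR's quasi-likelihood test, log2 fold change -5.32 ± 0.33 SE, adjusted p = 1.77e-05). Pcdhgb6 behaved alike, with 134, 168 and 115 counts in pECDCs, 6, 10 and 11 in iECDCs and 27, 17 and 30 after SB431542. Its log2 fold change between iECDCs and pECDCs was -3.58 ± 0.34 (adjusted p = 0.000218). For Pcdhga3 the counts were 111, 78 and 98, then 5, 8 and 9, then 12, 11 and 20. Its iECDC libraries were all below its pECDC libraries, and the log2 fold change was -3.30 ± 0.27 (adjusted p = 8.45e-05).

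The gamma A and B genes with fewer counts included further decreases. Pcdhgb4 had 39, 23 and 50 counts in pECDCs and 7 in each iECDC library, a log2 fold change of -2.02 ± 0.34 (edgeR, adjusted p = 0.00473). Pcdhga6 went from 46, 26 and 36 counts to 7, 7 and 10, with a log2 fold change of -1.77 ± 0.31 (adjusted p = 0.00575). Pcdhgb1 had 19, 15 and 29 counts against 1, 6 and 2 (log2 fold change -2.39 ± 0.54, adjusted p = 0.0176). Pcdhga5, the most abundant of this set, had 128, 129 and 123 against 69, 53 and 54 counts and a log2 fold change of -0.75 ± 0.15 (adjusted p = 0.0106). The call of Pcdhgb1 or Pcdhga5 was lost under some of the 11 alternatives (highest adjusted p 0.0804 and 0.164), whereas Pcdhga11, Pcdhgb6, Pcdhga3, Pcdhgb4 and Pcdhga6 kept an adjusted p under 0.05 in all 11. The genes that kept their call had all needed their pECDC counts to pass the filter, as stated above. Pcdhgb5 did not pass the filter for this comparison. It had 16, 14 and 11 counts in pECDCs and 2, 1 and 2 in iECDCs, a ratio of 6.33 with a counting interval of 2.505 to 20.53.

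Other gamma A and B genes were not called lower. Pcdhga9 rose in iECDCs, with 37, 40 and 40 counts in pECDCs against 63, 57 and 43 in iECDCs (edgeR, log2 fold change 0.84 ± 0.19, adjusted p = 0.0189, up to 0.131 under the alternatives). Pcdhga7, the most abundant gamma A gene, had 211, 215 and 225 counts against 169, 145 and 160, which is 9.79 ± 1.1 CPM (mean ± SD, n = 3) in pECDCs and 9.24 ± 1.0 CPM in iECDCs, and its libraries overlapped. Pcdhga2 was at 6.02 ± 0.78 and 6.91 ± 0.30 CPM and Pcdhgb2 at 3.60 ± 0.11 and 3.21 ± 0.37 CPM, also with overlapping libraries. None of these 3 genes was called. Along the array, genes called lower were interspersed with tested genes not called lower: Pcdhga2 lies directly beside Pcdhga3, and Pcdhga9 directly beside Pcdhgb6. Genes called lower also lie side by side, as Pcdhga3 and Pcdhgb1 do. Genes of the gamma A and B type together were at 47.2 to 51.7 CPM in pECDCs and 27.9 to 31.0 CPM in iECDCs, a 1.67-fold lower mean with no overlap.

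**Figure D2:**
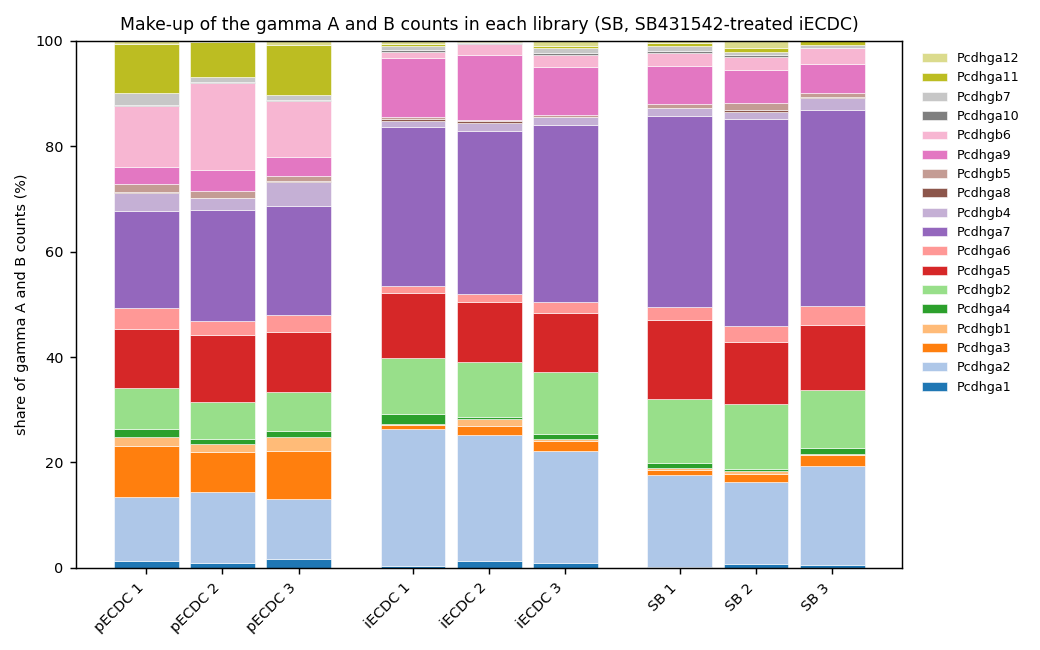
Share of all gamma A and B counts (%) that each gene took in each of the 9 libraries, as stacked bars from 0 to 100. Pcdhga11, Pcdhgb6 and Pcdhga3 fill a visible part of each pECDC bar and only thin bands of the iECDC and SB431542-treated bars, where Pcdhga2 and Pcdhga7 take larger parts.

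The gamma C-type genes carried most of the reads of the family. Pcdhgc3, which is broadly expressed outside the brain and whose protein binds the Wnt pathway scaffold Axin1, had 2099, 1773 and 2004 counts in pECDCs, 1515, 1368 and 1537 in iECDCs and 2281, 2023 and 2136 after SB431542. This is 87.8 ± 1.9, 86.5 ± 12 and 116 ± 17 CPM, so that the means of pECDCs and iECDCs differed by less than the spread between libraries, and the gene was not called there. It accounted for 50.3% ± 0.93, 60.3% ± 3.5 and 56.8% ± 6.2 of all gamma counts in the 3 groups. Pcdhgc5, a C-type gene known from the postnatal brain, had 869, 766 and 781 counts in pECDCs, 479, 513 and 351 in iECDCs and 877, 383 and 861 after SB431542. It was lower in iECDCs than in pECDCs without overlap (edgeR, log2 fold change -0.48 ± 0.12, adjusted p = 0.027, up to 0.413 under the alternatives). Its SB431542-treated libraries were split, with replicate 2 at 383 counts and the others at 877 and 861. Pcdhgc4, which is needed for neuron survival, was at 2.02 ± 0.15, 1.19 ± 0.39 and 1.82 ± 0.35 CPM and was not called in any comparison. Its iECDC libraries (0.897 to 1.63 CPM) all lay below its pECDC libraries (1.91 to 2.19 CPM).

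In the beta array the called decreases in iECDCs lay together. Pcdhb17, Pcdhb18, Pcdhb19, Pcdhb20, Pcdhb21 and Pcdhb22, the 6 genes at the 3′ end of the array, were all lower in iECDCs than in pECDCs, while the neighbouring Pcdhb14, Pcdhb15 and Pcdhb16 were not called. Pcdhb14 and the untested Pcdhb7, Pcdhb9 and Pcdhb13, which lie outside this block, were also lower in iECDCs without overlap of libraries. This arrangement was noticed after the values were seen. The largest of these differences was that of Pcdhb20, with 56, 59 and 82 counts in pECDCs against 24, 19 and 16 in iECDCs (edgeR, log2 fold change -1.37 ± 0.23, adjusted p = 0.0049). It kept an adjusted p under 0.05 in all 11 alternatives, and its libraries did not overlap. Pcdhb18 went from 45, 39 and 44 to 26, 12 and 6 counts (log2 fold change -1.19 ± 0.34, adjusted p = 0.0442) and Pcdhb19 from 88, 70 and 67 to 30, 32 and 16 (-1.16 ± 0.24, adjusted p = 0.0108). The 3 remaining genes were the more abundant ones and fell less. Pcdhb17 had 318, 321 and 324 counts against 209, 150 and 100 and a log2 fold change of -0.73 ± 0.17 (adjusted p = 0.0194). Pcdhb21 and Pcdhb22 had log2 fold changes of -0.61 ± 0.17 and -0.55 ± 0.13, and the calls of the 5 genes other than Pcdhb20 were lost under some alternatives, with the highest adjusted p between 0.0686 and 0.324.

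Pcdhb5 went the other way. Its counts were 37, 25 and 19 in pECDCs, 84, 84 and 35 in iECDCs and 148, 168 and 132 after SB431542, and no group overlapped with another once scaled to library size. The levels were 1.21 ± 0.36, 3.87 ± 1.5 and 7.97 ± 0.56 CPM. Between iECDCs and pECDCs the log2 fold change was 1.68 ± 0.33 (edgeR, adjusted p = 0.00947, up to 0.0504 under the alternatives). Of the beta genes it is the only member called higher in that comparison, and it made up 1.94% ± 0.63 of beta counts in pECDCs, 8.09% ± 1.6 in iECDCs and 9.74% ± 2.5 after SB431542. At the other extreme Pcdhb13 had 5, 5 and 10 counts in pECDCs, 0 in all 3 iECDC libraries and 0, 0 and 1 after SB431542. Against a floor of 3 counts over the group it was at least 5.15-fold lower in iECDCs, and it did not pass the filter for a test. Pcdhb9 had 8, 9 and 13 counts against 3, 2 and 3, a ratio of 2.90 with a counting interval of 1.297 to 7.312.

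**Figure D3:**
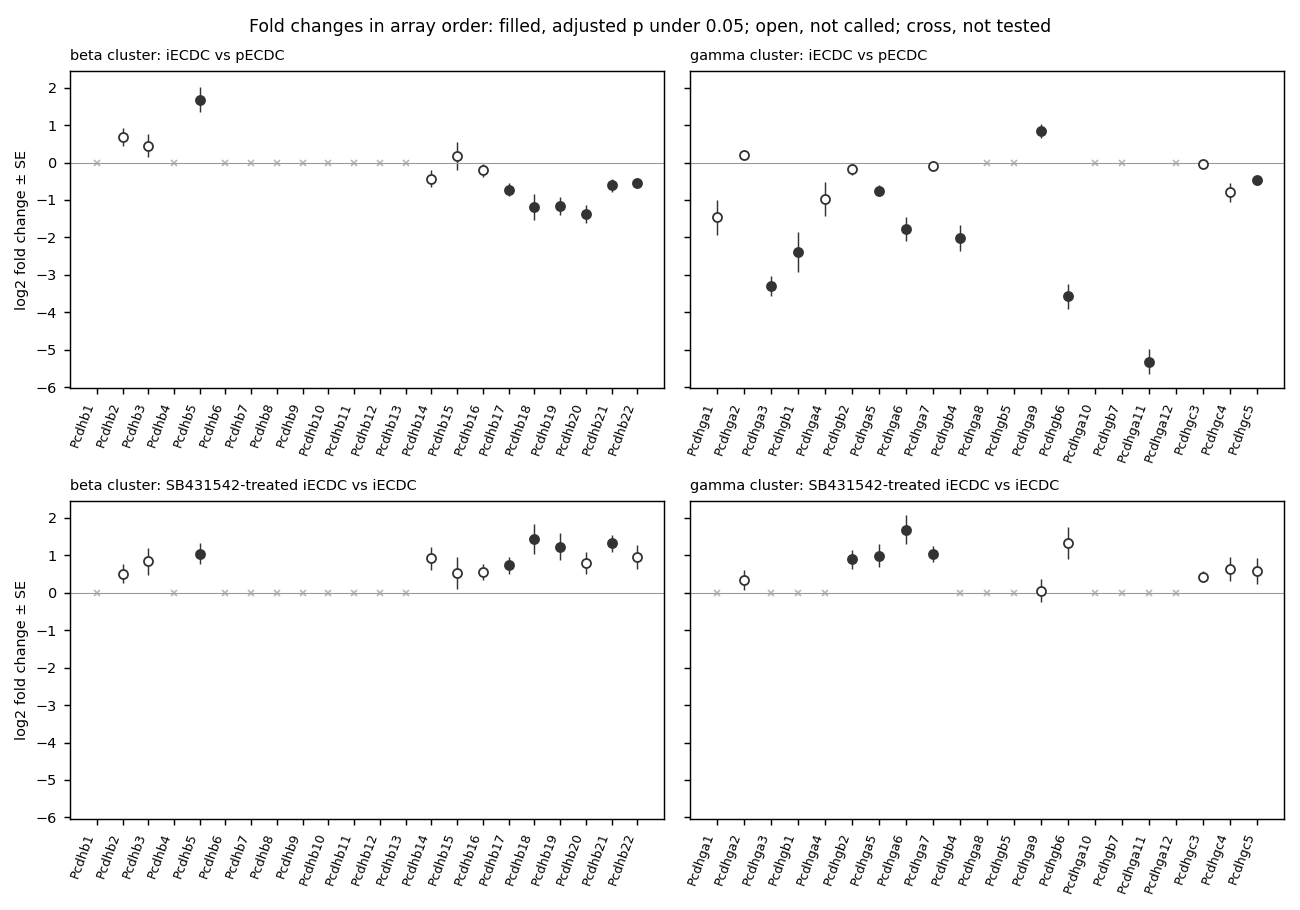
Log2 fold change ± SE of the beta and gamma genes in array order for iECDCs against pECDCs (upper panels) and SB431542-treated iECDCs against iECDCs (lower panels), with filled points for an adjusted p under 0.05, open points for genes not called and crosses for genes not tested. In the upper panels the called beta decreases lie at the 3′ end and the gamma values spread from 0.84 down to -5.32, and in the lower panels all tested genes lie at or above 0.06.

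After SB431542 the clustered protocadherins that were called were all higher than in untreated iECDCs. Of 23 members tested, 10 were higher and 0 were lower in edgeR, beside 16.0% higher and 14.0% lower among 13559 genes. At an unadjusted p under 0.05, 17 were higher and 0 lower, and DESeq2 called 13 higher and 0 lower. All 23 log2 fold changes were positive, the 13 uncalled ones included, from 0.06 to 1.68 with a median of 0.89, beside 0.0015 over all genes. For 6 of the 10 the log2 fold change was at least 1, beside 10.6% in either direction. The libraries did not overlap for 15 tested members, where 23.6% of all tested genes were higher without overlap. Pcdhga6, Pcdhgb6, Pcdhb15 and Pcdhb18 passed the filter on low counts only because of their treated libraries, so a higher value was the likelier outcome for them. The number of calls rested on single libraries. It was 20 without SB431542-treated replicate 2, 22 without that library and iECDC replicate 3 together, 7 without iECDC replicate 3, and 2 or 3 when any of the other libraries was left out.

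Among the beta genes the increases after SB431542 included several that were lower in iECDCs than in pECDCs. Pcdhb21 had 104, 79 and 108 counts in pECDCs, 52, 56 and 39 in iECDCs and 127, 118 and 150 after SB431542. Its log2 fold change after SB431542 was 1.32 ± 0.23 (edgeR, adjusted p = 0.00585), and it is the only member whose call in this comparison held in all 12 alternatives. Pcdhb18 and Pcdhb19 were higher by 1.44 ± 0.41 and 1.24 ± 0.36 on the log2 scale (adjusted p = 0.0315 and 0.0345, up to 0.108 and 0.125 under the alternatives), and their treated libraries at 37 to 45 and 45 to 83 counts overlapped those of pECDCs. Pcdhb17 had 286, 238 and 278 counts after SB431542 and a log2 fold change of 0.73 ± 0.22 (adjusted p = 0.0383, up to 0.131). Pcdhb5 rose by a further 1.04 ± 0.28 (adjusted p = 0.0259, up to 0.0842). Pcdhb22 was not called, and its treated libraries were split like those of Pcdhgc5, with 197 counts in replicate 2 against 426 and 401. Pcdhb9, too low in iECDCs for a test, had 8, 24 and 20 counts after SB431542 against 3, 2 and 3, a ratio of 5.99 with a counting interval of 2.823 to 14.59.

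The gamma A and B genes included some that were higher after SB431542 than in iECDCs and some whose counts remained far below those of pECDCs. Pcdhga6 had 27, 22 and 35 counts after SB431542 against 7, 7 and 10 in iECDCs (edgeR, log2 fold change 1.68 ± 0.39, adjusted p = 0.0151). Pcdhga7 had 400, 286 and 357 counts against 169, 145 and 160 (1.04 ± 0.21, adjusted p = 0.00976). Pcdhga5 and Pcdhgb2 were higher by 0.99 ± 0.31 and 0.89 ± 0.26 (adjusted p = 0.0427 and 0.033). Under the alternatives the highest adjusted p of these 4 genes was 0.0776, 0.0506, 0.157 and 0.131. Pcdhga11 with 5 to 7 counts, Pcdhga3 with 11 to 20 and Pcdhgb6 with 17 to 30 were below 67, 78 and 115, the lowest pECDC counts of the 3 genes. For Pcdhga11 the ratio of treated to untreated iECDCs was 3.31 with a counting interval of 1.186 to 11.42, and for Pcdhgb6 the iECDC and treated levels were 0.543 ± 0.22 and 1.35 ± 0.46 CPM without a call.

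Compared with pECDCs, SB431542-treated iECDCs had 9 members higher and 5 lower of 31 tested, beside 17.9% and 17.0% of 14015 genes. In 9 of these 14 the log2 fold change was at least 1 in either direction, beside 9.49%. This comparison shares its treated libraries with the one above and its pECDC libraries with the first, so the values stand side by side and are not independent. The 5 lower members all belonged to the gamma A and B genes. The log2 fold changes were -3.63 ± 0.27 for Pcdhga11 (edgeR, adjusted p = 0.000267), -2.45 ± 0.28 for Pcdhga3 (0.00133), -2.34 ± 0.41 for Pcdhgb1 (0.00552), -2.23 ± 0.33 for Pcdhgb6 (0.00332) and -1.36 ± 0.41 for Pcdhga1 (0.0392). Apart from Pcdhga1, each kept its call in all 11 alternatives. Pcdhga11, Pcdhgb1 and Pcdhga1 passed the filter on low counts through their pECDC libraries alone, so a lower call was the only likely one for them. The higher members were Pcdhac2, Pcdhb2, Pcdhb3, Pcdhb5, Pcdhb16, Pcdhb21, Pcdhga7, Pcdhgb2 and Pcdhgc3. Pcdhb5 led them with a log2 fold change of 2.73 ± 0.23 (adjusted p = 0.000453), followed by Pcdhb3 with 1.31 ± 0.39 (0.0379), Pcdhac2 with 1.28 ± 0.26 (0.0096) and Pcdhb2 with 1.20 ± 0.22 (0.00711). Pcdhgc3 and Pcdhb16 were higher by 0.41 ± 0.12 and 0.35 ± 0.11 (adjusted p = 0.0305 and 0.0463). Of the 9 higher members, Pcdhac2, Pcdhb2 and Pcdhb5 kept their call in all 11 alternatives. The calls of the other 6 were lost under some, with adjusted p-values up to 0.170 for Pcdhb16, 0.133 for Pcdhb3 and Pcdhgb2, 0.108 for Pcdhgc3, 0.0846 for Pcdhb21 and 0.0554 for Pcdhga7. Without SB431542-treated replicate 2, 21 members were called (16 higher, 5 lower), and without any of the other libraries 7 to 9.

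In the alpha array, the C-type gene Pcdhac2 was the one that could be tested. Its product is required for the spacing of serotonergic axons in the brain. It had 71, 47 and 39 counts in pECDCs, 38, 49 and 62 in iECDCs and 74, 131 and 113 after SB431542. The treated libraries were above both other groups in CPM, at 5.61 ± 1.2 against 2.34 ± 0.62 and 2.98 ± 1.1, while pECDCs and iECDCs overlapped and were not called apart. The log2 fold change of treated over untreated iECDCs was 0.93 ± 0.30 (edgeR, adjusted p = 0.0492, up to 0.15 under the alternatives). The symbol Pcdha11 stands on 2 rows of the table. The row ENSMUSG00000007440 held 13, 7 and 8 counts in pECDCs, 6, 0 and 1 in iECDCs and 3, 0 and 1 after SB431542, and ENSMUSG00000102206 held at most 1 count. Treated iECDCs were lower than pECDCs for the former by a ratio of 5.87, with a counting interval of 2.054 to 23.04. Pcdha9 had 3, 4 and 0 counts in pECDCs, 3, 1 and 0 in iECDCs and none after SB431542. Pcdhac2 took 77.2% ± 2.3 of alpha counts in pECDCs, 90.7% ± 10 in iECDCs and 98.0% ± 2.7 after SB431542.

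Summed over the beta and the gamma array, mean levels were lower in iECDCs than in pECDCs and highest after SB431542, while gamma A and B reads were spread over fewer genes in both iECDC groups. Beta genes summed to 62.6 ± 2.3 CPM in pECDCs, 46.6 ± 9.5 in iECDCs and 84.7 ± 18 after SB431542. For gamma genes the sums were 174.8 ± 6.8, 142.9 ± 14 and 207 ± 49 CPM. In both arrays iECDCs lay below pECDCs without overlap. The treated libraries lay above both other groups without overlap for beta genes, but overlapped both for gamma genes. SB431542-treated replicate 2 was at 64.3 CPM for beta and 152 CPM for gamma, against 92.8 to 97.1 and 223 to 246 in the other treated libraries, and without it the means were 94.9 and 234.5. Without iECDC replicate 3 the iECDC means were 52.0 and 136.6 CPM. The evenness of use was expressed as an effective number of genes, the exponential of the Shannon entropy of the count shares, which equals the number of genes when all are used equally. For gamma A and B genes it was 11.1 ± 0.85 in pECDCs, 6.96 ± 0.24 in iECDCs and 7.04 ± 0.16 after SB431542. The mean summed level of these genes after SB431542 (50.6 ± 14 CPM) reached that of pECDCs (48.7 ± 2.5 CPM) while the effective number did not. Treated replicate 2 was at 34.9 CPM, below every pECDC library, and the other treated libraries were at 63.4 and 53.5 CPM. Beta genes showed a small difference in the other direction, with 8.35 ± 0.19, 8.80 ± 0.27 and 9.44 ± 0.33. With 3 libraries per group an exact two-sided permutation test cannot give a p-value below 0.1, so no test was made of sums and effective numbers.

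**Figure D4:**
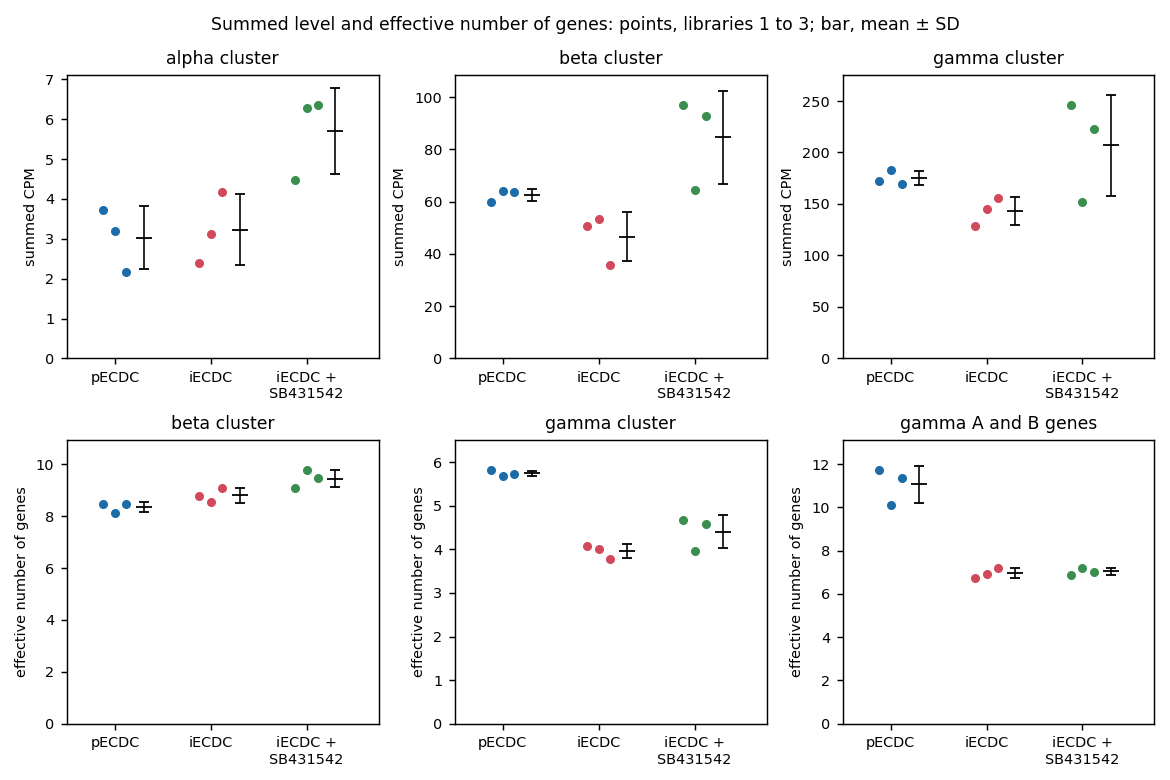
Summed CPM of the alpha, beta and gamma arrays (upper panels) and effective number of genes in the beta array, the gamma array and the gamma A and B genes (lower panels), with a point for each library and the mean ± SD (n = 3) beside them. The effective number of gamma A and B genes lies between 10.1 and 11.7 in pECDCs and between 6.75 and 7.22 in the other 6 libraries.

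Levels of different genes can be set side by side only per length, and the deposited FPKM uses the full gene length including shared exons. By FPKM the order in pECDCs was Pcdhgc3 (15.8 ± 0.35), Pcdhgc5 (4.69 ± 0.33), Pcdhb17 (3.07 ± 0.35), Pcdhb16 (2.33 ± 0.11), Pcdhb22 (2.13 ± 0.21) and Pcdhga7 (1.86 ± 0.21). Pcdhb16 and Pcdhb22, and Pcdhb22 and Pcdhga7, did not differ beyond their spread. When CPM of the unadjusted totals was divided by the length in kb of exons that no other member shares, Pcdhgc3 (26.3 ± 0.59 per kb) and Pcdhgc5 (6.64 ± 0.48) still led, and Pcdhga7 (3.19 ± 0.36) stood level with Pcdhb17 (3.14 ± 0.36). Pcdhgb6, at 2.50 ± 0.76 per kb, was among the next genes in pECDCs and at 0.203 per kb in iECDCs. In iECDCs the order per unshared kb was Pcdhgc3, Pcdhgc5, Pcdhga7, Pcdhga2, Pcdhb16 and Pcdhb17. After SB431542 it was Pcdhgc3 (35.0 ± 5.6), Pcdhgc5 (7.26 ± 3.4), Pcdhga7 (6.24 ± 1.6) and Pcdhga2 (3.51 ± 1.2), of which Pcdhgc5 and Pcdhga7 overlapped in spread.

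Non-clustered protocadherins, which have their own cytoplasmic tails, were set beside them. Of the 11 listed, Pcdh1 and Pcdh12 lie beside the arrays on chromosome 18 and are also among the neighbouring genes below. In iECDCs compared with pECDCs, 5 of 8 tested were lower (Pcdh7, Pcdh9, Pcdh10, Pcdh11x and Pcdh19) and Pcdh18 was higher in edgeR, beside 9.21% lower and 7.21% higher among all genes. Pcdh10 and Pcdh11x passed the filter on low counts through their pECDC libraries alone, so a lower call was the only likely one for them. After SB431542, 3 of 6 tested were lower than in iECDCs and 0 were higher, beside 14.0% and 16.0% of all genes, with the same counts at an unadjusted p under 0.05 and in DESeq2. Pcdh20 fell by 4.11 ± 0.62 on the log2 scale (adjusted p = 0.0033), Pcdh19 by 3.27 ± 0.43 (adjusted p = 0.0020) and Pcdh18 by 2.08 ± 0.28 (adjusted p = 0.0022). Pcdh20 had 37, 20 and 14 counts in iECDCs and 0, 2 and 2 after SB431542. It passed the filter through its untreated libraries alone, so a lower call was the only likely one for it. Pcdh19, a protocadherin that acts together with N-cadherin, was at 2.52 ± 0.18 FPKM in pECDCs, 1.13 ± 0.41 in iECDCs and 0.113 ± 0.072 after SB431542. Against pECDCs, 6 of 8 were lower after SB431542 and 0 were higher, beside 17.0% and 17.9%. Pcdh11x and Pcdh20 passed the filter there through their pECDC libraries alone.

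Genes for promoter choice and silencing of the arrays were followed as a further list. Of 24 tested, 1 was higher and 0 lower in iECDCs than in pECDCs in edgeR, beside 16.4% called in either direction among all genes (3 and 1 at an unadjusted p under 0.05, 2 and 0 in DESeq2). It was Uhrf1, a maintenance factor of DNA methylation, at 40.4 ± 0.27 and 50.6 ± 5.0 FPKM (log2 fold change 0.31 ± 0.08, adjusted p = 0.0231). Ctcf was at 16.7 ± 0.23, 15.8 ± 0.71 and 17.5 ± 0.20 FPKM in pECDCs, iECDCs and treated iECDCs and was not called in any comparison. Rad21, a cohesin subunit, was at 56.3 ± 1.8, 59.2 ± 2.2 and 68.1 ± 3.4 FPKM and was called between treated iECDCs and pECDCs (0.28 ± 0.07, adjusted p = 0.0215). Dnmt3b, the enzyme that methylates the promoters, was at 0.294 ± 0.055, 0.247 ± 0.055 and 0.303 ± 0.022 FPKM, and Smchd1, a repressor of the arrays, at 4.89 ± 0.31, 4.48 ± 0.35 and 4.17 ± 0.39 FPKM. Neither was called. After SB431542, 2 of 24 were higher than in iECDCs and 0 lower, beside 30.0% called in either direction (7 and 0 at an unadjusted p under 0.05, 3 and 0 in DESeq2). Among them was the cohesin loader gene Mau2 (log2 fold change 0.48 ± 0.10). Against pECDCs, 5 of 24 were higher and 2 lower, near the 34.8% called among all genes, led by Ehmt2, a histone H3 methyltransferase (0.61 ± 0.08, adjusted p = 0.0020).

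Of 14 tested genes for binding partners and processing of the proteins, 2 were higher and 2 lower in iECDCs than in pECDCs, beside 7.21% and 9.21% of all genes. Ptk2, which encodes the focal adhesion kinase that clustered protocadherins inhibit, was higher in iECDCs (log2 fold change 0.38 ± 0.07, adjusted p = 0.0068) and lower after SB431542 than in iECDCs (-0.78 ± 0.12, adjusted p = 0.0031). Its levels were 9.82 ± 0.18, 12.9 ± 0.99 and 7.42 ± 0.78 FPKM, without overlap between groups. Adam10, the protease that sheds the extracellular part, was lower in iECDCs (-0.22 ± 0.06, adjusted p = 0.0299). Fyn was higher (0.26 ± 0.07) and Abi1 lower (-0.27 ± 0.07) in the same comparison, and Marcks was higher after SB431542 (0.56 ± 0.17, adjusted p = 0.0396). Against pECDCs, 0 were higher and 2 lower after SB431542, beside 17.9% and 17.0% (3 and 3 at an unadjusted p under 0.05, 1 and 2 in DESeq2).

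Genes beside the arrays on chromosome 18 were compared as neighbours. None of 14 tested was called between iECDCs and pECDCs in edgeR, beside 16.4% of all genes, where 2 had an unadjusted p under 0.05 and DESeq2 called 0, and their median log2 fold change was -0.00088. Tmco6 was the neighbour called higher after SB431542, against iECDCs (log2 fold change 1.08 ± 0.23, adjusted p = 0.0115) and against pECDCs (0.89 ± 0.19, adjusted p = 0.0126). Taf7, a gene between the beta and gamma arrays, had 52, 33 and 57 counts in pECDCs, 49, 33 and 24 in iECDCs and 53, 31 and 43 after SB431542. Its groups overlapped, and it was not called in any comparison.

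The TGF-β response genes served as a check of the treatment label. Smad7, Skil, Ctgf and Acta2 were among the genes lower after SB431542 than in iECDCs, and Tgfbi was higher. Ctgf was at 444 ± 14 FPKM in iECDCs and 43.0 ± 24 after SB431542 (edgeR, log2 fold change -3.36 ± 0.36, adjusted p = 0.0010). Tgfbi was at 0.608 ± 0.078 FPKM in iECDCs and 7.01 ± 4.3 after SB431542 (3.53 ± 0.56, adjusted p = 0.0040). Between iECDCs and pECDCs, 3 of the 9 genes were higher and 2 lower, beside 7.21% and 9.21% of all genes.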

How the data were processed

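RNA libraries were made by the authors from total RNA (per the labels with the Illumina TruSeq kit, while the methods of the study name NEBNext). For every gene the deposited table held raw read counts and FPKM values, in which the authors divided by the full gene length. Counts per library summed to 16568306 to 23951392. The submitters' processing notes name Bowtie2 2.0.6, TopHat2 2.0.9 and mm9, but all 57 members had the GRCm38 coordinates and lengths of GENCODE release M21, which were used. Whether counting used strand, and the counting program, are not given in the sources used here. Further deposited columns give the authors' DESeq output (log2 ratios between groups with each p-value and its adjusted form) and their mean signal per group in counts divided by size factors. None of these was used, and 3 further columns, also named as group means, were left unmapped. The labels give no batch, and the methods state 2 biological replicates where 3 libraries per group were found, all of which were used.

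Groups came from the labels. Counts were tested with edgeR 4.0.16 (TMM, filterByExpr with a minimum count of 10 and total of 15, quasi-likelihood test, Benjamini-Hochberg over all tested genes, threshold 0.05) with only the compared groups in each fit. CPM values are counts per 1000000 counts of the TMM-scaled library total. Ratios of low counts carry exact 95% intervals and, against groups at 0, a floor of 3 counts over the group. Both cover counting error only. Members and lists were chosen with earlier results of these data known. Named with fold changes are members called without overlap of libraries in at least 1 comparison, and the 3 members with the most counts of each array. Other names serve counts of 5 or fewer, neighbours or low counts and were chosen after their values were seen. From the other lists up to 4 called genes with the largest change per comparison were eligible, besides Ctcf, Rad21, Dnmt3b and Smchd1. Alternatives were DESeq2 1.42.0, RLE size factors, no filter, all 9 libraries in the fit, a replicate block, leaving out each library and a log2 fold change of at least 1. On counts simulated for 13586 genes of the iECDC and pECDC libraries, edgeR recovered 170 of 200 genes changed by 1 on the log2 scale with 9 false calls. Sequences of the genes and some genes of the other lists are not reported here. Software was R 4.3.3, matplotlib 3.10.9, scipy 1.17.1, numpy 2.4.6, pandas 2.3.3 and python 3.11.15.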

Additional observations from a re-analysis of the deposited data

How the results depend on the processing

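The 40 called fold changes of members kept their direction under all 450 alternative values. In 333 the call held and in 117 it was lost, and 14 of the 40 calls held under every alternative: 6 between iECDCs and pECDCs, 1 between SB431542-treated iECDCs and iECDCs (Pcdhb21) and 7 between treated iECDCs and pECDCs. Of 306 alternative values for 27 named fold changes that were not called, 36 passed the threshold and 16 changed sign. Leaving out a library in turn gave 9 to 20 calls in place of 16 for iECDCs against pECDCs, 2 to 20 in place of 10 for treated iECDCs against iECDCs and 7 to 21 in place of 14 for treated iECDCs against pECDCs. All 9 libraries in the fit gave 8 calls for the first comparison and 18 for the second, no filter on low counts gave 17 for the second, and a log2 fold change of at least 1 left 10, 6 and 9. Leaving out iECDC replicate 3 and SB431542-treated replicate 2 together, chosen after seeing the data, gave 22 for the second. The cause was not tested, except that fewer libraries entered and that the fold threshold is an added condition.

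With the replicate number as a block the calls were 14, 7 and 9. The numbers did not pair the libraries, since the correlations of same-numbered deviations lay between -0.274 and 0.0335, and 1, 0 and 2 of 6 libraries correlated best with their own number. The scaling alternatives moved the median of all genes by at most 0.0146 in absolute log2 value.

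Without the member with the most counts, which lowers a sum by construction, alpha genes summed to 0.691, 0.250 and 0.0950 CPM in pECDCs, iECDCs and treated iECDCs, beta genes to 48.4, 36.9 and 66.0 and gamma genes to 87.0, 56.5 and 91.3. Effective numbers then were 7.80, 8.22 and 9.07 for beta and 8.36, 5.97 and 6.52 for gamma. By FPKM in place of counts they were 9.13, 9.61 and 10.3 for beta and 6.08 for gamma in pECDCs. Leaving out each library gave sums of 2.68 to 3.46, 2.76 to 3.64 and 5.38 to 6.33 CPM for alpha, 61.9 to 64.0, 43.2 to 52.0 and 78.5 to 94.9 for beta and 171 to 177, 137 to 150 and 187 to 235 for gamma. Members with at most 10 counts in every library (12 alpha, 9 beta and 3 gamma) are limited by depth.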

Other observations

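Pcdhgb8, a gamma B gene annotated as a polymorphic pseudogene and therefore outside the 57 genes, had 25, 11 and 23 counts in pECDCs, 16, 17 and 13 in iECDCs and 22, 26 and 27 after SB431542. Its groups overlapped between pECDCs and iECDCs in counts. Among transcripts that lie inside or between the arrays, the lincRNA gene 3222401L13Rik, which ends just before the gamma array, had 113, 101 and 102 counts in pECDCs, 82, 86 and 57 in iECDCs and 79, 79 and 84 after SB431542. Gm10544, on the minus strand at the end of the alpha array, had 13 to 25, 17 to 33 and 19 to 39 counts in the same order, and BC037039, antisense within the gamma array, had 13 to 37, 14 to 24 and 21 to 30. Whether counting used strand is not known, so reads of the antisense genes and of overlapping gamma genes cannot be told apart. No test was made of these genes.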
